A study of Mus musculus with 12 samples.

Results

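The 6 genes described here, Cd34, Ly6a, Ly6d, Cd200, Cd44 and Cd24a, encode surface antigens that are used to tell apart compartments of the mouse hair follicle. They were taken by name from the 2 deposited count tables and are 6 of the 37931 gene names that both tables hold. RNA sequencing of poly(A) RNA was done on hair follicle stem cells sorted from back skin of mice with and without the forkhead transcription factor Foxc1 in the skin epithelium, in anagen, the growth phase of the hair cycle, and in early telogen, the rest phase that follows it. The flow cytometry gate took cells with a nuclear green fluorescent histone (H2BGFP) that stained for CD34 and CD49f and did not stain for Sca-1. Cd34 encodes the CD34 antigen of that gate and Ly6a encodes Sca-1, so that 2 of the 6 genes were read out in cells already selected on the protein they encode.

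All mice carried the K14-H2BGFP transgene and floxed Foxc1 alleles (Foxc1 fl/fl). The knockout (KO) mice also carried K14Cre, in which the keratin 14 promoter drives Cre in basal epithelial cells and their descendants, so the deletion was not limited to stem cells; the wild-type (WT) mice were labelled as lacking Cre. The anagen KO group held 2 libraries, from females aged 29 and 31 days. The anagen WT group held 3 libraries, from a female aged 29 days, a male aged 30 days and a male whose title gives day 31 and whose age label gives 43 days. The early telogen KO group held 4 libraries and the early telogen WT group 3, all with an age label of 47 days, although KO 5 is titled day 43; KO 2 and WT 4 were male and the other 5 female. Replicate numbers are those of the labels for early telogen. The labels do not say that libraries of a group came from separate animals, so p-values measure the spread between these libraries.

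Gene counts summed to 29025553 to 54482469 per library in anagen and to 2662083 (KO 5) to 11821916 in early telogen. Each stage was deposited in its own table, so a difference between stages cannot be told apart from a difference between the tables. Foxc1 stood at 0.206 to 0.276 CPM (each gene count scaled to the library total) in anagen KO libraries against 34.6 to 116 CPM in anagen WT, and at 0.91 to 3.11 CPM against 43.8 to 61.2 CPM in early telogen, so every library matched its labelled genotype. The gate's other epithelial genes were high in all 12 libraries: Itga6, which encodes CD49f, lay between 579 and 880 CPM and Krt14 between 6231 and 9574 CPM. Early telogen KO 2 had the highest summed levels of epidermal, fibroblast and immune marker lists of all 12 libraries, and early telogen WT 3 had the lowest fibroblast and endothelial sums. Fold changes of Ly6a and Ly6d that involve early telogen KO libraries are also given without KO 2, alone or together with WT 3, while their correlations with other genes are given over all 12 libraries.

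CD34 is a sialomucin of blood progenitors and vessel endothelium that also marks stem cells of the mouse bulge, the lower permanent part of the follicle. Sca-1 and LY6D are small proteins of the Ly6 family held in the membrane by a lipid anchor. Sca-1 marks basal cells of the epidermis and of the upper follicle in mouse. LY6D is used, among other things, as a marker of early B-lineage progenitors, and its transcript is not limited to them. CD200 is a glycoprotein of the immunoglobulin superfamily that restrains myeloid cells through the CD200 receptor and is found on bulge and hair germ cells. CD44 is the main receptor for hyaluronan, and CD24 is a small, heavily glycosylated, lipid-anchored protein of developing lymphocytes and many epithelia. Surface staining follows the protein, while only transcripts were measured here.

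The genes lie on 5 chromosomes in the mm10 (GRCm38) annotation of GENCODE release M21. Cd34 spans chr1:194938819-194961279 on the plus strand, Cd44 spans chr2:102811141-102901665 on the minus strand and Cd24a spans chr10:43578284-43584265 on the plus strand. Ly6d (chr15:74762056-74763620) and Ly6a (chr15:74994877-74998031) lie on the minus strand of chromosome 15, within the Ly6 cluster. Cd200 spans chr16:45382135-45409053 on the minus strand. Each value below counts reads over the exons of a gene.

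The 250 bases before the transcript start were available in the RefSeq promoter table (GRCm38.p6) for 3 of the 6 genes, Cd34, Cd200 and Cd44. They are printed for these 3 because the deleted gene encodes a forkhead protein. Both strands were searched for TAAACA, the core of forkhead sites, and for TAAATA, a variant of that core. They were also searched for TATAAA as the TATA box, for the CCAAT box by those letters, and for GGGCGG as the GC box. Matches to the forkhead variant and to the TATA box can overlap. Capitals mark matches.
Cd34, chr1:194938571-194938820, plus strand: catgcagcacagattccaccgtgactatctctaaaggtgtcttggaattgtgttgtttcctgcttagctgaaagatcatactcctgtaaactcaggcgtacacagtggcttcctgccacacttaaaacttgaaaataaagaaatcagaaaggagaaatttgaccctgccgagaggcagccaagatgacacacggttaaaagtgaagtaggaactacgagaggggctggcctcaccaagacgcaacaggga
Cd200, chr16:45409054-45409303, minus strand: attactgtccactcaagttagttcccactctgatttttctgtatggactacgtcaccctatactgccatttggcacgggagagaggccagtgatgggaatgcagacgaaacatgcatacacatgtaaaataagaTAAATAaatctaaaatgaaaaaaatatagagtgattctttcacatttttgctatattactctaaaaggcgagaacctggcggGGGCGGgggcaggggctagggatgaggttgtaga
Cd44, chr2:102901666-102901915, minus strand: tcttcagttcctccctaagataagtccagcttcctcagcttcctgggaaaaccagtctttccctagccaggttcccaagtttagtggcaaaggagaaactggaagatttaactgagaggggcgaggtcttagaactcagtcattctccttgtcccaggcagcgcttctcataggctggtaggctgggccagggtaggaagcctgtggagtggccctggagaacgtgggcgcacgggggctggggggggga
The Cd34 and Cd44 windows held none of the 5 motifs. The Cd200 window held TAAATA starting 116 bases before the start and GGGCGG 34 bases before it. Of 32851 promoter windows of the same length, 12.03% held the forkhead core, 12.71% its variant, 12.37% the TATA box, 33.85% the CCAAT box and 32.74% the GC box. A match describes these letters only.

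Cd34 was the member with the clearest difference between genotypes: its transcripts were lower in KO than in WT libraries at both stages. In anagen, the WT libraries held 352, 757 and 547 CPM (replicates 1, 2 and 3) and the KO libraries 277 and 230 CPM. In early telogen, the WT libraries held 647, 845 and 787 CPM (replicates 1, 3 and 4) and the KO libraries 417, 349, 357 and 365 CPM (replicates 5, 1, 2 and 3). The genotypes did not overlap at either stage, KO being the lower, and the early telogen KO libraries lay close together. The KO means were 254 ± 32.9 CPM (SD, n = 2) against 552 ± 203 (n = 3) in anagen, and 372 ± 30.6 (n = 4) against 760 ± 102 (n = 3) in early telogen, or 0.459 and 0.49 times the WT mean. The spread was larger than counting error in each group: the coefficient of variation was 8.23% in early telogen KO, where counting alone would give 2.04%, and 36.8% in anagen WT, where counting would give 0.71%.

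In early telogen Cd34 fell by 1.20 ± 0.21 on the log2 scale (SE; edgeR quasi-likelihood test, adjusted p = 0.0212), and it was the 1 member of 6 that passed the threshold of 0.05 over all genes, where 0.956% of the 12030 genes tested passed in either direction and 0.457% as lower. The call was lost without KO 5 (adjusted p = 0.0551 by edgeR), KO 1 (0.0692), WT 3 (0.125) or WT 4 (0.0814), and without both KO 2 and WT 3 (0.066, with 0.39% of genes called). It was also lost with the replicate number as a block (0.101, with 0.0914% called) and in a fit of all 12 libraries (0.0601, with 0.296% called). In all the fits that changed the libraries or the design, the log2 fold change stayed between -1.34 and -0.99. DESeq2, which called 3.52% of genes, gave an adjusted p of 3.7e-06 for all 7 libraries. In anagen the log2 fold change was -1.22 ± 0.35 (adjusted p = 0.314 by edgeR), which did not pass. None of the 14409 genes tested in anagen passed with edgeR, 0% called, while 1456 (10.1%) had an unadjusted p under 0.05 and DESeq2 called 507 genes (3.52%), among them Cd34 (adjusted p = 0.0348).

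The difference of the Cd34 effect between stages was -0.01 ± 0.39 on the log2 scale (adjusted p = 1 by edgeR), an interval wide enough to hold sizeable differences either way. Averaged over both stages, a contrast added after the data were seen, Cd34 fell by 1.22 ± 0.20 on the log2 scale (adjusted p = 0.00479 by edgeR), beside 2.73% of 13193 genes called in either direction and 2.05% called as lower. This averaged value passed in all 12 fits that left out 1 library, with adjusted p-values from 0.000729 to 0.0293 by edgeR. Both anagen KO libraries were female while 2 of 3 anagen WT libraries were male. The female anagen WT library was the lowest WT library for Cd34, and with sex as a covariate the anagen log2 fold change of Cd34 was -0.55 ± 0.37 (adjusted p = 1 by edgeR).

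**Figure D1:**
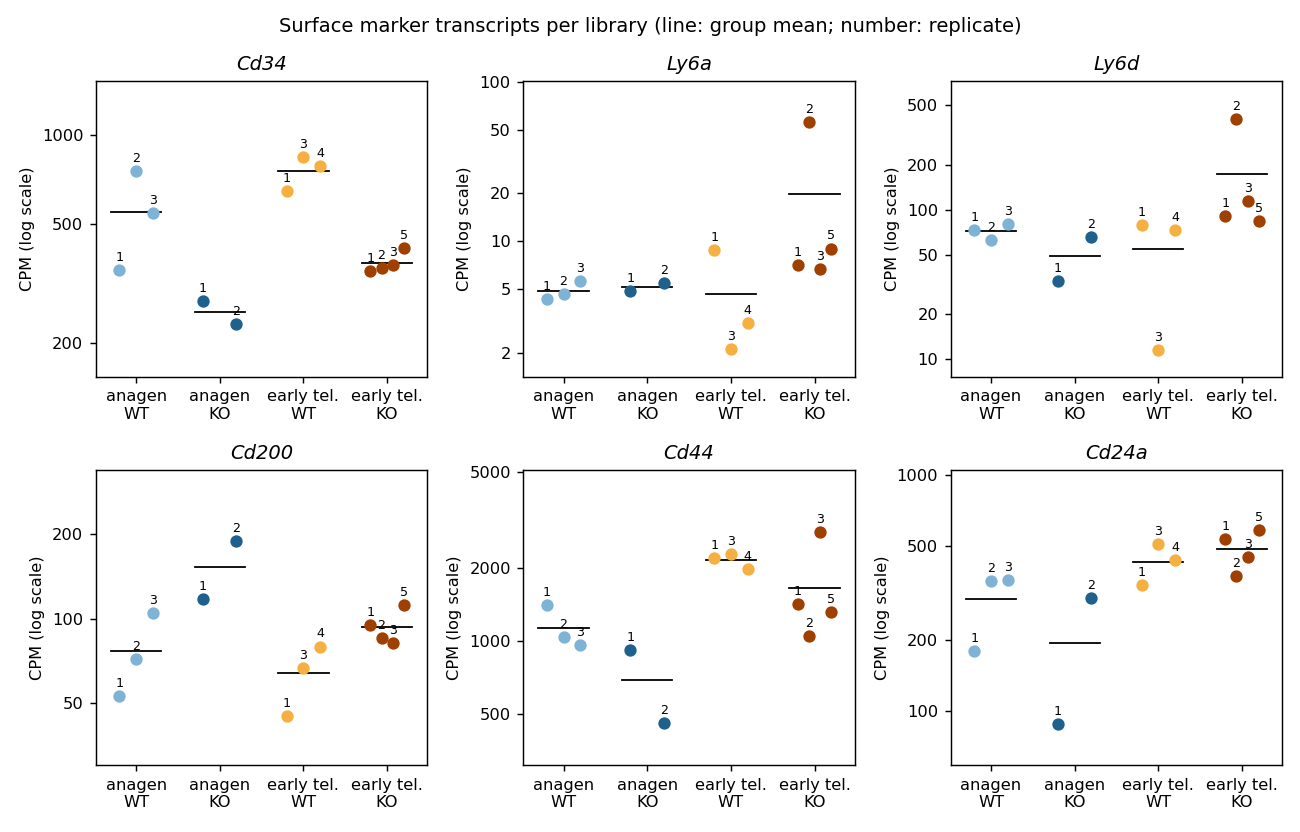
CPM of the 6 transcripts in each of the 12 libraries, on a log scale with its own range for each gene; points are libraries labelled by replicate number, lines are group means, and early tel. is early telogen. Cd34 points of KO libraries sit below those of WT libraries at each stage, and KO 2 of early telogen stands alone at 56 CPM for Ly6a and 404 CPM for Ly6d.

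Ly6a, whose product the gate excludes, was the lowest of the 6 members by CPM in every library. The 5 anagen libraries held between 4.33 and 5.62 CPM, from 152 to 236 counts each, with KO and WT libraries intermixed. In early telogen the WT libraries held 8.84, 2.13 and 3.1 CPM (replicates 1, 3 and 4) and the KO libraries 9.02, 7.11, 56 and 6.67 CPM (replicates 5, 1, 2 and 3). KO 2 was 7.37 times the mean of the other 3 KO libraries, which spanned 6.67 to 9.02 CPM, and WT 1 lay within that span. The groups overlapped, and the log2 fold change was 1.81 ± 0.91 (adjusted p = 0.505 by edgeR). Without KO 2 and WT 3 it was 0.24 ± 0.46 (adjusted p = 0.98 by edgeR).

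Part of the Ly6a transcript sequence is not unique to Ly6a. HTSeq kept reads aligned at several places apart from gene counts in anagen, so reads from shared stretches may be missing from the Ly6a count. The effect on its level was not tested. Of the 50-base words in its annotated transcripts, 19% also occur in other genes, namely Ly6c1, Ly6i, I830127L07Rik and Ly6c2. The longest run that the coding sequences of Ly6a and Ly6c1 share is 45 bases long (GENCODE M21, chromosome 15, gene strand). It covers bases 37 to 81 of the 402 coding bases of Ly6a and is shown as their longest shared coding stretch. None of the shared 50-base words lies inside this run, which is shorter than they are. A read longer than 45 bases would reach past it.
Ly6a and Ly6c1: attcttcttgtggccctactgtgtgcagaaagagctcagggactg
With Ly6d the longest shared coding run was 10 bases, and Ly6d, Cd200 and Cd44 had no 50-base word in common with another gene. For Cd24a 2.75% of words were shared, with Gm6212, and for Cd34 2.14%.

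Ly6d had a wide spread in early telogen, where KO 2 was the highest library, as for Ly6a, and WT 3 the lowest. In anagen the WT libraries held 73.5, 62.6 and 80.3 CPM and the KO libraries 33.5 and 65.5 CPM, with overlap. In early telogen the WT libraries held 79.5, 11.5 and 73.1 CPM (replicates 1, 3 and 4) and the KO libraries 84.1, 91.4, 404 and 114 CPM (replicates 5, 1, 2 and 3). The early telogen KO libraries all lay above the WT libraries, but by a small margin apart from KO 2, which was 4.18 times the mean of the others, and WT 3, which was at 0.151 times the mean of the other WT libraries. The log2 fold change was 1.45 ± 0.83 (adjusted p = 0.569 by edgeR), and 0.29 ± 0.21 (adjusted p = 0.899 by edgeR) without KO 2 and WT 3. In anagen it was -0.63 ± 0.30 (adjusted p = 0.539 by edgeR), and the difference between stages was 2.07 ± 0.99 (adjusted p = 0.802 by edgeR), or 0.90 (adjusted p = 0.768 by edgeR) without KO 2 and WT 3.

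Among early telogen libraries, the summed epidermal, fibroblast and immune marker lists were highest in KO 2 and lowest in WT 3, as were Ly6a and Ly6d. The immune sum of WT 3 lay close to that of another WT library. Sums of some other lists did not follow this order. The summed level of 15 epidermal genes, including the suprabasal keratins Krt1 and Krt10, was 10109 CPM in early telogen KO 2 against 3345 to 4198 CPM in the other 3 KO libraries, and 2728 CPM in WT 3 against 4574 and 6423 CPM in the other 2 WT libraries. In KO 2 Krt10 alone gave 3519 CPM and Krt1 1157 CPM of that sum, so it does not speak for each gene listed. Between genotypes in early telogen, Lor, Ivl, Sbsn, Dsc1 and Calml3 of this list had negative log2 fold changes and the others positive ones. The sum of 14 fibroblast and dermal papilla genes was 6073 CPM in KO 2 against 1140 to 2200 CPM in the other KO libraries, and 634 CPM in WT 3 against 1340 and 2139 CPM. The sum of 14 immune genes was 286 CPM in KO 2 against 78.5 to 139 CPM, with Cd3e and Cd3g at 0, and 48.6 CPM in WT 3 against 54.3 and 139 CPM, with Cd3e, Fcer1g, Csf1r, Itgam and Cd52 at 0. The sum of 11 endothelial genes was 51.5 CPM in KO 2, within the 44.7 to 67.4 CPM of the other KO libraries, and 7.6 CPM in WT 3 against 39 and 42.8 CPM in the other WT libraries. In anagen these sums spanned 2620 to 5151 CPM for the epidermal, 836 to 2296 CPM for the fibroblast, 35.9 to 252 CPM for the immune and 17.2 to 27.9 CPM for the endothelial list. The part of these cells in the levels of Ly6a and Ly6d was not tested, and in bulk samples fewer cells of a type and less RNA per cell cannot be told apart. The sum of 10 isthmus and infundibulum genes, of the upper follicle, went the other way. In KO 2 it was 4399 CPM against 5537 to 8247 CPM in the other KO libraries. In WT 3 it was 8803 CPM against 5400 and 5826 CPM. Krt17 is in this list and also in a list of 9 companion layer and inner bulge genes. The sum of those 9 genes was 4253 CPM in KO 2 against 6987.5 to 10282 CPM in the other KO libraries. It was 9237 CPM in WT 3 against 7980 and 9255 CPM. The low sum in KO 2 was thus not particular to the upper follicle list, and single genes of these lists were not compared between libraries. The sum of 29 other Ly6 superfamily genes, 14 of them at 0 in KO 2, was 1217 CPM in KO 2, the lowest of 12 libraries. For WT 3 that sum was 2814 CPM against 1918 and 2591 CPM. The genes of this list did not share 1 direction between genotypes in early telogen. Ly6e, Ly6g6e, Lynx1, Cd59a, Ly6c1 and Ly6g6c had positive log2 fold changes, as Ly6a and Ly6d did. Lypd3, Lypd5, Lypd6 and Lypd6b had negative ones, and none of these genes passed with edgeR. Cd34 is also made by endothelial cells, and Pecam1, their defining adhesion molecule, lay between 0.0927 and 13.2 CPM in the 12 libraries. Pecam1 covers endothelial cells only. The part of these or of other cells, such as those of the fibroblast list, in the Cd34 level was not tested.

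**Figure D2:**
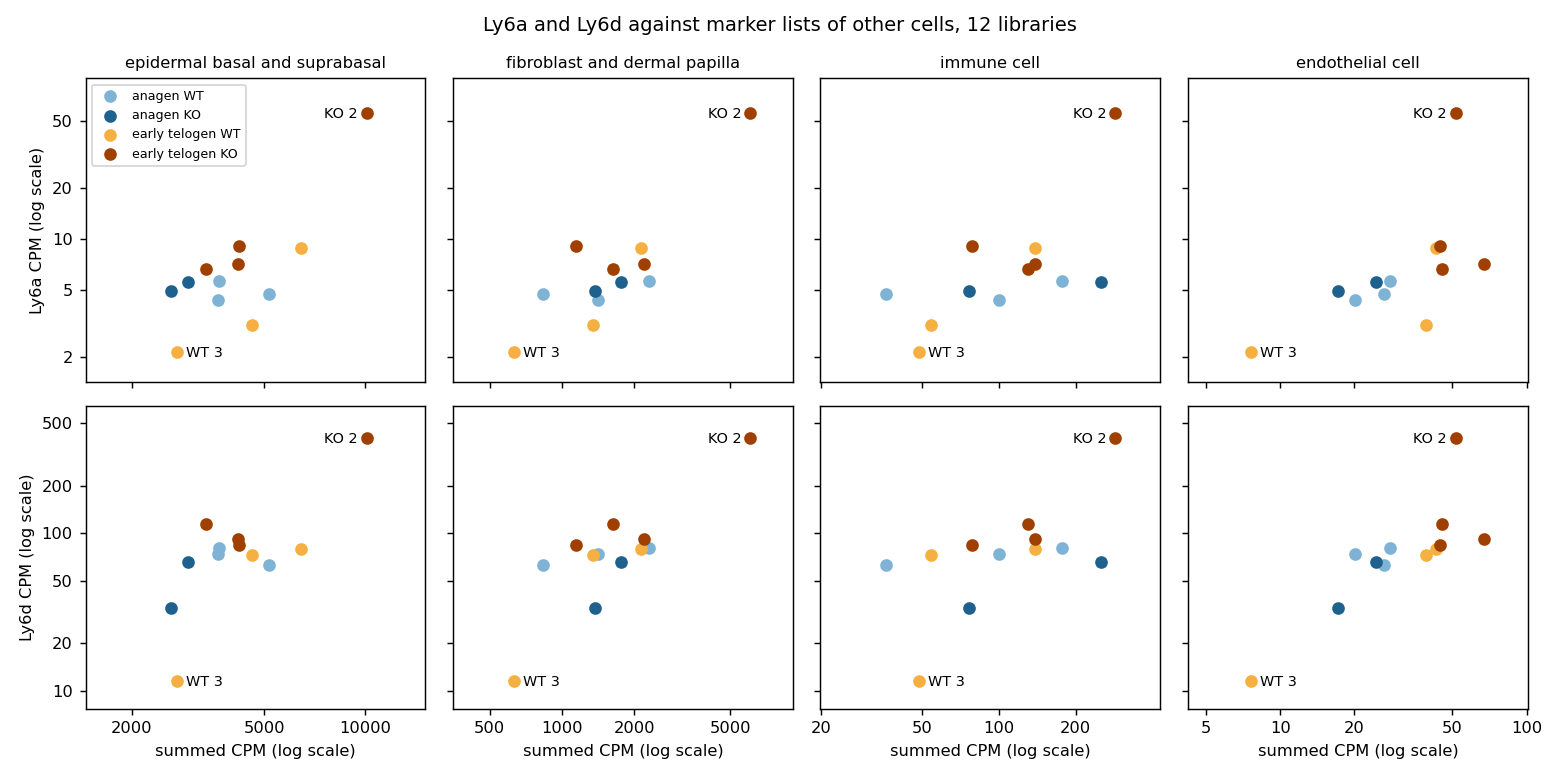
Ly6a (upper row) and Ly6d (lower row) in CPM against the summed CPM of 4 marker lists, both on log scales, for 12 libraries coloured by group. Early telogen KO 2 has the highest epidermal (10109 CPM), fibroblast (6073 CPM) and immune (286 CPM) sums together with the highest Ly6a and Ly6d, and WT 3 has the lowest Ly6a and Ly6d.

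Cd200 ran the other way from Cd34. In anagen the WT libraries held 53.1, 71.9 and 105 CPM and the KO libraries 117 and 189 CPM. In early telogen the WT libraries held 45, 66.9 and 79.6 CPM and the KO libraries 112, 94.7, 85.1 and 82.1 CPM (replicates 5, 1, 2 and 3). The KO libraries lay above the WT libraries of their stage without overlap, though the closest libraries, early telogen KO 3 and WT 4, were only a little apart. The KO mean was 153 ± 50.5 CPM (SD, n = 2) against 76.6 ± 26.2 (n = 3) in anagen. In early telogen it was 93.6 ± 13.6 (n = 4) against 63.8 ± 17.5 (n = 3), or 1.47 times the WT mean. Neither difference passed: the log2 fold change was 0.91 ± 0.33 (adjusted p = 0.421 by edgeR) in anagen and 0.38 ± 0.23 (adjusted p = 0.559 by edgeR) in early telogen. Averaged over both stages it was 0.63 ± 0.21 (adjusted p = 0.144 by edgeR).

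Groups that do not overlap were common among all genes, which sets the weight of the counts for the 6 members. In anagen Cd34 and Cd44 lay lower and Cd200 higher without overlap, where 11.2% of all genes tested lay lower and 18.5% higher. In early telogen Cd34 lay lower and Cd200 and Ly6d higher without overlap, where 3.37% of all genes lay lower and 9.75% higher. Cd34 was lower and Cd200 higher at both stages, which held for 1.47% and 2.45% of 13193 genes. Which 6 genes to describe was decided with results of these data known, so these shares are given as background only.

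Because Cd34 and Cd200 differed in opposite directions, their ratio within a library separated the genotypes over the whole series. The ratio of Cd34 to Cd200 counts was 1.22 and 2.36 in the anagen KO libraries and 5.21 to 10.5 in anagen WT. It was 3.69 to 4.45 in early telogen KO and 9.89 to 14.4 in early telogen WT. All 6 KO libraries lay below all 6 WT libraries of either stage. This ratio does not depend on library size and was formed after both directions were known, so it carries no test. Against Itga6, the other positive antigen of the gate, the Cd34 ratio was 0.398 to 0.444 in anagen KO, 0.495 to 1.24 in anagen WT, 0.422 to 0.6 in early telogen KO and 0.849 to 1.17 in early telogen WT, apart within each stage but not across stages. Itga6 itself had log2 fold changes of -0.38 ± 0.24 (adjusted p = 0.657 by edgeR) in anagen and -0.16 ± 0.21 (adjusted p = 0.822 by edgeR) in early telogen.

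**Figure D3:**
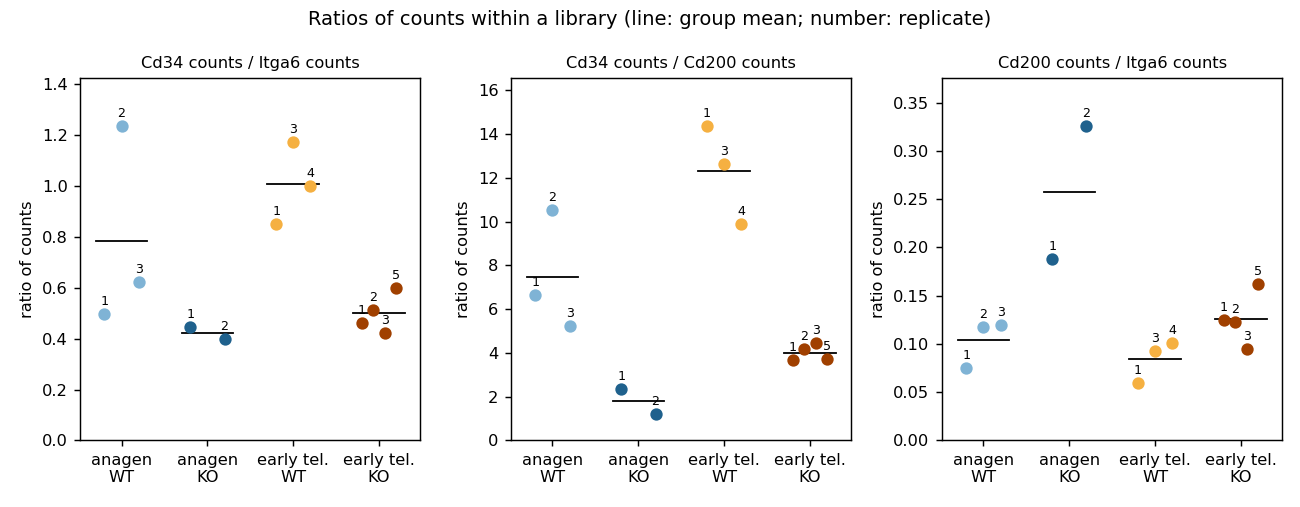
Ratios of counts within each of the 12 libraries for Cd34 over Itga6, Cd34 over Cd200 and Cd200 over Itga6; points are libraries labelled by replicate number, lines are group means, and early tel. is early telogen. The Cd34 to Cd200 ratio lies at 4.45 or below in the KO libraries and at 5.21 or above in the WT libraries.

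Cd44 was the most abundant member by CPM and the one that changed with stage in WT cells. The anagen WT libraries held 1410, 1034 and 961 CPM and the early telogen WT libraries 2201, 2294 and 1972 CPM, without overlap, which 18% of all genes showed in that direction. Cd44 rose by 1.02 ± 0.21 on the log2 scale from anagen to early telogen in WT (adjusted p = 0.00714 by edgeR), the 1 member of 6 called in that comparison, where 29.5% of 12718 genes were called and 13.6% as higher. It passed in all 6 fits that left out 1 library, and not in a fit of all 12 libraries, which also tested more genes (adjusted p = 0.0641 by edgeR, with 27.1% of genes called). In KO cells the anagen libraries held 918 and 459 CPM and the early telogen libraries 1318, 1413, 1050 and 2828 CPM (replicates 5, 1, 2 and 3), again without overlap, with a log2 fold change of 1.31 ± 0.50 (adjusted p = 0.0882 by edgeR). Between genotypes the KO libraries lay below the WT libraries in anagen (-0.81 ± 0.35, adjusted p = 0.505 by edgeR), while in early telogen KO 3 was the highest of all libraries and the other 3 KO libraries were below all WT libraries (-0.51 ± 0.35, adjusted p = 0.617 by edgeR).

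Genes that make, cut or bind hyaluronan or work with CD44 were followed as a list of 20, of which 19 could be tested. From anagen to early telogen in WT, 6 rose and 0 fell, with a median log2 fold change of 0.11, beside 13.6% of all genes tested that rose, 15.9% that fell and a median of -0.10. The 3 of smallest p were Esrp2, a splicing regulator of epithelial transcripts that include Cd44, which rose by 1.11 ± 0.18, Msn, which encodes moesin, a linker of the CD44 tail to actin, which rose by 0.92 ± 0.21, and Rdx, which encodes the related radixin and rose by 0.64 ± 0.16 on the log2 scale (adjusted p = 0.00294, 0.0111 and 0.0145 by edgeR). In KO cells 0 of 19 rose and 3 fell over the same stages, beside 10.2% and 12% of all genes: the hyaluronan synthase Has1 by 3.12 ± 0.28, the hyaluronidase Hyal2 by 1.16 ± 0.26 and the membrane protease Mmp14 by 1.23 ± 0.29 on the log2 scale (adjusted p = 5.95e-05, 0.00952 and 0.0128 by edgeR). In WT cells Has1, Hyal2 and Mmp14 had log2 fold changes of -2.28 ± 0.86, -0.10 ± 0.32 and -0.19 ± 0.39 (adjusted p = 0.105, 0.838 and 0.755 by edgeR). Passing in 1 genotype and not in the other is no test of a difference. Between genotypes none of the 19 passed with edgeR in either stage, where 0 genes in anagen and 0.956% in early telogen were called.

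Cd24a varied more between libraries of a group than between genotypes. In anagen the WT libraries held 179, 354 and 360 CPM and the KO libraries 88.6 and 300 CPM. In early telogen the WT libraries held 341, 509 and 435 CPM and the KO libraries 582, 536, 372 and 450 CPM (replicates 5, 1, 2 and 3). The genotypes overlapped at both stages, with log2 fold changes of -0.71 ± 0.56 (adjusted p = 0.732 by edgeR) in anagen and 0.01 ± 0.25 (adjusted p = 0.99 by edgeR) in early telogen. Within KO cells every early telogen library lay above every anagen library, with a log2 fold change of 1.33 ± 0.46 (adjusted p = 0.0612 by edgeR). In WT cells the stages overlapped and it was 0.62 ± 0.29 (adjusted p = 0.143 by edgeR).

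In KO cells none of the 6 members passed with edgeR between stages, where 22.2% of 12771 genes did, although the 2 stages did not overlap for any of them. Cd200 was lower in early telogen (-0.71 ± 0.26, adjusted p = 0.0751 by edgeR) and the other 5 were higher, where 23.5% of all genes lay lower and 21.5% higher without overlap. At an unadjusted p under 0.05 there were 5 members and 4706 genes (36.8%), and DESeq2 called 4 members, Ly6d, Cd24a, Cd44 and Ly6a, among 3514 genes (27.5%). Without KO 2 edgeR called 3 members, Ly6d, Cd24a and Cd44, beside 29.2% of genes. The log2 fold change of Ly6d then was 1.05 ± 0.32 (adjusted p = 0.0309 by edgeR), from 1.74 with KO 2. That of Ly6a was 0.60 ± 0.40 (adjusted p = 0.28 by edgeR), from 1.83. DESeq2 without KO 2, added after the data were seen, called Ly6d, Cd24a, Cd44 and Cd34 beside 33.2% of genes, and no longer Ly6a (adjusted p = 0.232). Cd34 was higher in early telogen in KO cells (0.56 ± 0.25, adjusted p = 0.132 by edgeR) and in WT cells (0.55 ± 0.28, adjusted p = 0.172 by edgeR), and neither passed with all libraries in edgeR. Ly6a, Ly6d and Cd200 had log2 fold changes between -0.34 and 0.02 in WT cells between stages, with overlap. Tests of the genotype effect between stages called 0 of 6 members, where 0.144% of 13193 genes were called with edgeR, 841 genes (6.37%) had an unadjusted p under 0.05 and DESeq2 called 154 (1.17%).

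**Figure D4:**
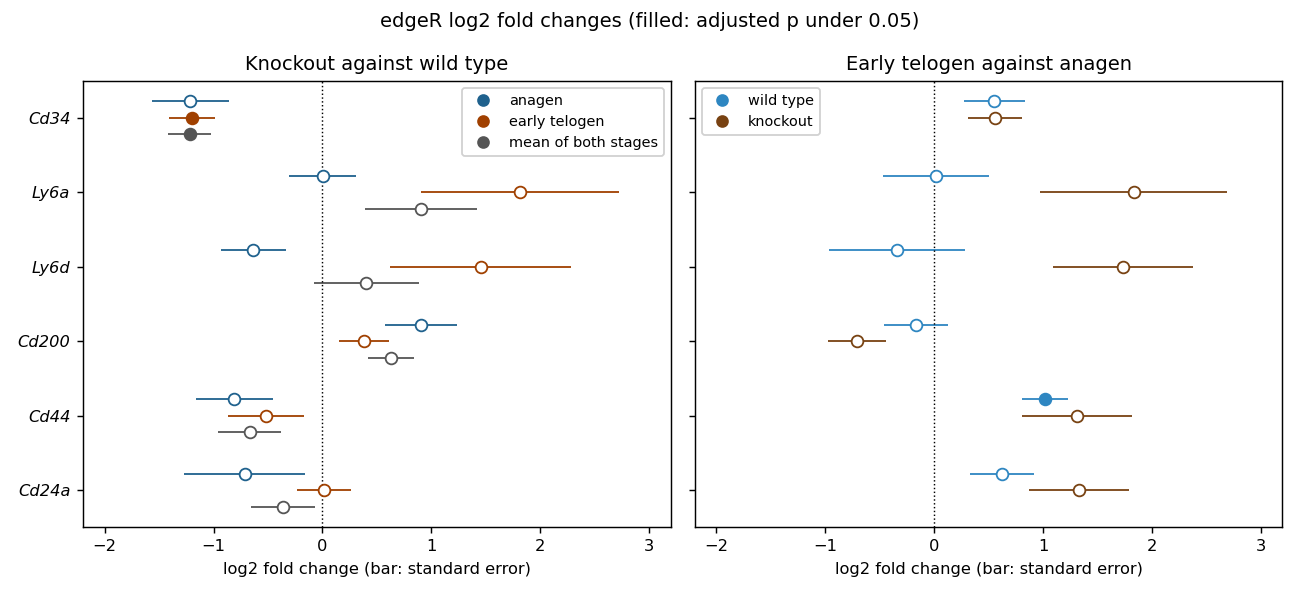
Log2 fold changes of the 6 members from edgeR, with standard errors as bars, for KO against WT (left) and early telogen against anagen (right); filled points have an adjusted p under 0.05 over all genes. Cd34 is filled in early telogen and for the mean of both stages, Cd44 is filled for the stage difference in WT cells, and all other points are open.

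Levels of different genes were set side by side per kilobase of merged exons. By group mean Cd44 was highest in all 4 groups, at 168 ± 35.6 CPM per kilobase in anagen WT, 102 ± 47.9 in anagen KO, 318 ± 24.5 in early telogen WT and 244 ± 118 in early telogen KO. Ly6a was lowest in all 4 groups, at 3.89 to 16.3 CPM per kilobase, and in 11 of 12 libraries; the highest of these means, in early telogen KO, was 6.3 ± 1.04 (n = 3) without KO 2. From the highest, Cd34 had rank 3 of 6 in early telogen WT (104 ± 14 CPM per kilobase), rank 4 in anagen WT (75.7 ± 27.8) and early telogen KO (51 ± 4.2), and rank 5 in anagen KO (34.8 ± 4.51), below Cd200 (46.1 ± 15.2). Many neighbours in the order overlapped: in anagen WT the libraries spanned 48.2 to 104 CPM per kilobase for Cd34, 84.1 to 108 for Ly6d and 69.5 to 140 for Cd24a. In early telogen WT, Cd44 (291 to 339 CPM per kilobase) lay above Cd24a (132 to 197), and Cd24a above Cd34 (88.8 to 116), without overlap.

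Few of the other genes of the Ly6 superfamily and of other surface antigens passed the test between genotypes. Of 30 listed Ly6 superfamily genes, 15 could be tested in anagen and 10 in early telogen, and none passed with edgeR, with median log2 fold changes of -0.40 and 0.53 beside 0.02 and 0.03 over all genes tested. Averaged over both stages, where 2.73% of all genes were called, 1 of 12 rose, Cd59a, which encodes an inhibitor of complement lysis (0.92 ± 0.18 on the log2 scale, adjusted p = 0.012 by edgeR), and 1 fell, Lypd6 (by 1.32 ± 0.32, adjusted p = 0.0432 by edgeR). Of 34 other surface antigens of skin epithelium, 32 were tested in early telogen and 1 rose, Icam1, an adhesion receptor for leukocytes (1.35 ± 0.24, adjusted p = 0.0236 by edgeR), beside 0.956% of all genes called; the median was -0.08. Averaged over both stages, again beside 2.73%, 1 of 33 rose, Cd59a, and 1 fell, Nt5e, which encodes the ectonucleotidase CD73 (by 2.01 ± 0.30, adjusted p = 0.00403 by edgeR). The CD200 and CD24 receptors, a list of 7, summed to at most 28 CPM in any library.

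Transcripts that mark the bulge were also followed, since Cd34 is one of its markers. In early telogen 1 of 23 tested bulge genes fell, beside 0.457% of all genes, and 0 rose; that 1 was Foxc1, whose fall the design set, with a median log2 fold change of -0.36 beside 0.03 over all genes. Averaged over both stages 6 of 23, Foxc1 among them, fell and 0 rose, beside 2.05% of all genes that fell, the 3 of smallest p being Foxc1, the water and glycerol channel Aqp3 and the growth factor Fgf18. The ratio of Cd34 to Krt15, a keratin of bulge cells, was 0.105 and 0.221 in the anagen KO libraries against 0.0758 to 0.0815 in anagen WT, and 0.0331 to 0.0655 in early telogen KO against 0.0673 to 0.115 in early telogen WT. KO libraries thus lay above WT in anagen and below WT in early telogen on this ratio, and the difference was not tested. Krt15 itself was 1254 and 2192 CPM in anagen KO, 4641 to 9289 CPM in anagen WT, 5577 to 10789 CPM in early telogen KO and 7328 to 9986 CPM in early telogen WT.

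The genes most like each member were named by Pearson correlation of log2(CPM + 1) over the 12 libraries, among 9020 genes with a mean of at least 5 CPM. For Cd34 these were Fmn1 (r = 0.957), which encodes an actin nucleating formin, Pbx3 (0.915), a homeodomain transcription factor, and Sbsn (0.898), which encodes suprabasin of differentiating epidermis. Fmn1 and Sbsn fell in early telogen KO, by 2.09 ± 0.26 and 1.01 ± 0.19 on the log2 scale (adjusted p = 0.00278 and 0.0304 by edgeR), where 0.457% of all genes were called as lower. Both were chosen for likeness to Cd34 in these same libraries, where Cd34 was lower in KO, so their fall is no separate result. With group means taken out, r with Cd34 was 0.764 for Fmn1, 0.634 for Pbx3 and 0.554 for Sbsn. For Cd44 the genes most like it included Arhgap17 and Zswim4 (r = 0.967 for both). For Cd24a they were Tob1, Klf4 and Pdzrn4 (0.905, 0.897 and 0.89), and for Cd200 Rab6a, Armcx1 and Irx5 (0.904, 0.885 and 0.853). For Ly6d they were Map3k8, Cpxm2 and the suprabasal keratin Krt1 (0.963, 0.937 and 0.931), and for Ly6a Mkl2, Atg13 and Rtkn (0.929, 0.903 and 0.885). The 12 points share stage, table, depth and genotype, and the Ly6a and Ly6d values rest largely on early telogen KO 2, so these are descriptions.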

How the data were processed

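Poly(A) RNA from sorted hair follicle stem cells was sequenced in 12 libraries. The deposited values are raw counts per gene made by the authors with TopHat2 and HTSeq on mm10, per the submitters' processing notes; the labels name a directional library kit. Versions, annotation and the strand setting are not given in the sources used here. For early telogen, 27 gene names had been turned into dates; their counts stayed in library totals. A further 3 broken lines were left out. HTSeq's summary lines, present for anagen, stayed out of totals. The line for reads aligned at several places held 31.1% and 32.8% of gene counts and summary lines together in anagen KO. In anagen WT it held 20.1% to 25.8%. None of the 13 pairs of libraries within groups agreed within sampling noise; other pairs were not compared.

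CPM were counts over the sum of gene rows. Tests used edgeR 4.0.16 in R 4.3.3 (TMM, filterByExpr with a minimum count of 10 and total of 15, robust quasi-likelihood fit), adjusted by the Benjamini-Hochberg method over all genes tested, at 0.05. Stage comparisons used the 37931 names in both tables. Alternatives were DESeq2 1.42.0, RLE factors, no filter, leaving out each library, a sex covariate, all 12 libraries in 1 fit, a replicate block, CPM over shared names, and leaving out early telogen KO 2 and WT 3 together; the contrast averaged over both stages, and DESeq2 without KO 2 for the stages in KO, were added after the data were seen. The fit was tested on simulated data. Sequences came from RefSeq and GENCODE.

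The 6 members and all lists were chosen with earlier results of these data known. All members are named in each comparison; of a list, genes past the threshold, at most the 3 of smallest p for each comparison; and the 3 genes of highest correlation with each member. For Cd44, 1 of these 3 is not reported here. Itga6, Krt14, Krt15, Pecam1 and Foxc1 were added as references, and the genes sharing words with Ly6a and Cd24a were named from the sequences.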

Additional observations from a re-analysis of the deposited data

Results flagged for a closer look

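In 2 of the 6 groups tested, those of the 6 members in the 4 early telogen KO libraries, 1 library stood far from the other 3. Early telogen KO 2 held 55.97 CPM of Ly6a, with a gap to the next library of 0.952 of the whole range, and 403.5 CPM of Ly6d, with a gap of 0.907 of the range; both are above Dixon's critical value for 4 libraries. Chance alone passes it in about 1 in 20 groups, and both values come from the same library. The groups of 2 and 3 libraries were not tested in this way. For Cd34, Cd200, Cd44 and Cd24a the gap was 0.762, 0.581, 0.796 and 0.372 of the range, below it.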

How the results depend on the processing

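Counts below are of members and of all genes with an adjusted p under 0.05, and log2 fold changes are those whose sign turned; DESeq2 changes scaling, spread estimate and test at once, the fit of all 12 libraries changes the libraries and the genes tested, and the cause of each change was not tested. For KO against WT in anagen, where no gene passed, DESeq2 gave 1 member (Cd34) and 507 genes, no filter on low counts 1 and 306, the sex covariate 1 gene, and all 12 libraries in 1 fit 154 genes. Ly6a there, at 0.00 in the edgeR fit, was -0.0023 in DESeq2, -0.0035 with RLE scaling and -0.0098 with no filter, and Cd24a was 0.035 with the sex covariate. In early telogen, where 1 member and 115 genes passed, no member passed with all 12 libraries in 1 fit or without KO 2 and WT 3; all-gene counts were 423 in DESeq2, 338 with no filter, 39 with all 12 libraries and 47 without KO 2 and WT 3. Cd24a in early telogen was -0.054 with the sex covariate and -0.012 with all 12 libraries. For early telogen against anagen in WT, no member passed with all 12 libraries, Ly6a was -0.042 with no filter and -0.092 with the sex covariate, and Cd200 was 0.063 with the sex covariate. In KO, 4 members passed in DESeq2 with or without early telogen KO 2 (Ly6a replaced by Cd34), 5 with no filter, 3 with the sex covariate and 2 with all 12 libraries. For the contrast of the KO effect in early telogen with that in anagen, 1 member passed with no filter, and all-gene counts were 154 in DESeq2, 409 with no filter, 6 with the sex covariate and 0 without KO 2 and WT 3, where Cd34 was 0.21 (0.0057 with no filter). For KO against WT averaged over both stages, a comparison chosen after seeing the data, as was leaving out KO 2 and WT 3 together, 4 members passed with no filter, all-gene counts were 809 in DESeq2, 1153 with no filter and 185 without KO 2 and WT 3, and Ly6d was -0.18 without them.

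Leaving out 1 library at a time gave 0 to 95 genes in anagen KO against WT, and Ly6a from -0.089 to 0.11. In early telogen it gave 0 to 1 members, 19 to 131 genes and Cd24a from -0.16 to 0.20. For the stages in WT it gave 1 to 2 members, 2312 to 3329 genes, Ly6a from -0.79 to 0.34, Ly6d from -0.69 to 0.12 and Cd200 from -0.36 to 0.14. In KO it gave 0 to 3 members and 1382 to 3640 genes. The difference between stages had 0 to 55 genes, Cd34 from -0.32 to 0.24 and Cd44 from -0.20 to 0.88. The averaged effect had 1 to 2 members and 163 to 449 genes.

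With a replicate block by the number in the titles, no member passed in early telogen (Cd34 -1.16 ± 0.19, adjusted p = 0.101 by edgeR) and 11 genes did. With a replicate block by the day in the titles, 253 genes but no member passed in anagen (Cd34 -0.88 ± 0.26, adjusted p = 0.176; Cd200 adjusted p = 0.0503), and Ly6a was -0.0070. Deviations from the group means correlated at 0.414 (P29) and 0.359 (P31) between same-day anagen libraries, and at 0.106 (number 1) and 0.053 (number 3) in early telogen. With fewer than 3 pairs these numbers were not taken as a pairing. Groups of 2 to 4 libraries limit every test here, and Ly6d and Ly6a counts rest on the libraries that carry most of them.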
